A study of Mus musculus with 19 samples.

Results

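Carbonic anhydrases are zinc enzymes that interconvert carbon dioxide and water with bicarbonate and a proton. The 6 genes described here are Car2, Car4, Car7, Car12, Car13 and Car14, out of 54119 genes in the data and 16 genes of the family looked up by name. They were chosen from measured values, because Car4 was switched on in epiblast-like cells of every genotype, so the step between the cell states is described below without a test for any of them. Transcript abundances (TPM, transcripts per 1000000, a measure per transcript length) were summed per gene.

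RNA was sequenced in 19 libraries of cultured mouse cells. Mouse embryonic stem cells (mESC) were kept in 2i medium, that is N2B27 with inhibitors of GSK3 and MEK1/2, plus LIF, and epiblast-like cells (EpiLC) were derived from them by 5 days of FGF5 and Activin A in the absence of LIF. The groups were wild-type XX cells of the LF2 line (3 mESC and 3 EpiLC libraries), wild-type XY cells of the E14 line (3 and 3), and Tet3-/- cells, which are XX and of LF2 (4 and 3 libraries, labelled as mutants #1 to #4, of which #2 is in mESC alone). The product of Tet3 is a dioxygenase that oxidises 5-methylcytosine in DNA. Sex and line cannot be told apart, since each sex is represented by 1 line. The labels do not say whether libraries of a group are separate cultures or whether each mutant number is a clone, so p-values measure the spread among these libraries.

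The enzymes of this family differ mainly in where they sit. Car2, Car13 and Car7 encode cytosolic enzymes, of which CA II is known for very fast turnover. Car4 encodes an enzyme held on the outer cell surface by a lipid anchor, and Car12 and Car14 encode membrane-spanning enzymes whose catalytic domain faces outward. The surface enzymes work beside bicarbonate transporters, Na+/H+ exchangers and lactate carriers in moving acid equivalents across the membrane. Naive mESC and the later EpiLC state, which resembles the epiblast after implantation, differ in their energy metabolism and in their signalling.

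Depth per library is unknown because TPM does not carry it. From 11128 to 13811 genes had at least 1 TPM per library, and nuclear protein-coding genes held from 21.4% to 46.7% of TPM, with the non-coding Rn7s1 alone at 23.5% to 43.7%. XX and XY EpiLC did not overlap in either share. The coding share was 28.9% to 30.9% in XX EpiLC and 44.6% to 46.7% in XY EpiLC. Rn7s1 held 38.9% to 39.45% and 23.5% to 27.4%. The part of this shift in the TPM differences between these groups was not tested. Over the tested genes XX EpiLC was lower than XY EpiLC by a median of -0.58 on the log2 scale, and the mESC counterpart was -0.19. Tet3-/- less XX had medians of 0.19 (mESC) and -0.07 (EpiLC). Results are given on TPM and again after median-of-ratios scaling, which brings the libraries to a common median gene ("scaled"). Tet3 had 0.532 to 0.916 TPM in Tet3-/- mESC against 0.536 to 1.06 in XX mESC, and 0.693 to 1.42 against 1.21 to 1.90 in EpiLC. These ranges overlap, and where in the gene the mutation lies is not given in the sources used here, so this level does not check the labels.

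The summed TPM of 14 naive pluripotency genes was 495 to 1038 in mESC libraries and 36.0 to 135 in EpiLC libraries. The sum of 13 formative genes was 36.7 to 81.5 in mESC, and in EpiLC it was 89.4 to 111 in XX, 494 to 631 in XY and 96.4 to 264 in Tet3-/-. Mutant #3 in EpiLC stood apart: its sum over 10 early mesoderm genes was 122 TPM, against 1.69 and 2.03 in the other mutants, 1.72 to 2.06 in XX EpiLC and 19.7 to 29.5 in XY EpiLC. Brachyury (T) made up 94.3 TPM of that sum, Mixl1 12.9, and 4 of the 10 genes had a group mean of at least 1 TPM. Mesp1 was at 0.214 TPM there. Its sums over 14 primitive and visceral endoderm, 9 trophoblast and 8 early neural genes were 17.0, 34.4 and 81.1 TPM, each the highest of the EpiLC libraries, and it was also the highest mutant for the formative and naive sums. Values that rest on it are given with and without it.

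Car4 and Car14, the members with the clearest differences between groups, have a promoter window in the RefSeq table for GRCm38.p6, which runs from 250 bases before to 50 bases after the annotated start. The windows are printed because TET enzymes act on methylated CpG, with each CpG in capitals and all other bases in lower case. The Car4 window is chr11:84957504-84957803 on the plus strand, and the Car14 window is chr3:95904636-95904935 on the minus strand.
Car4: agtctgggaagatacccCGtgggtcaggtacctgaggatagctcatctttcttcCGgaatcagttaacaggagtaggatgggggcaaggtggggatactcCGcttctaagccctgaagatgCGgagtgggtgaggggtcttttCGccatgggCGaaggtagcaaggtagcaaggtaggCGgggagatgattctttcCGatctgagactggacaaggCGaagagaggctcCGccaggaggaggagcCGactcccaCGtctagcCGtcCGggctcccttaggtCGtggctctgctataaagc
Car14: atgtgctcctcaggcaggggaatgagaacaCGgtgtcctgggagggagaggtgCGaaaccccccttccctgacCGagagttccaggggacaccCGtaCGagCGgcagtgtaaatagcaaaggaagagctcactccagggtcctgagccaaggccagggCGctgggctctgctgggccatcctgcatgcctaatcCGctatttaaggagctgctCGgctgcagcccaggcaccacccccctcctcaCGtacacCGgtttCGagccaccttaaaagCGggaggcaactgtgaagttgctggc
The Car4 window holds 15 CpG and the Car14 window 13, against a median of 7 and quartiles of 3 and 20 over 32851 windows of the same length. Windows are also in the table for Car12, with 9 CpG, and for 3 starts of Car7, with 28, 21 and 35. Short motifs were searched on both strands: TATAAA occurs in 13.6% of all windows, TAATCC is found in 7.06%, CATTCC is found in 14.7% and the GC box GGGCGG is found in 35.7%. Car4 held TATAAA only, at position 42 relative to the start, and Car14 held TAATCC at -61 and CATTCC, on the reverse strand, at -232. Methylation and binding were not measured in these data.

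**Figure D1:**
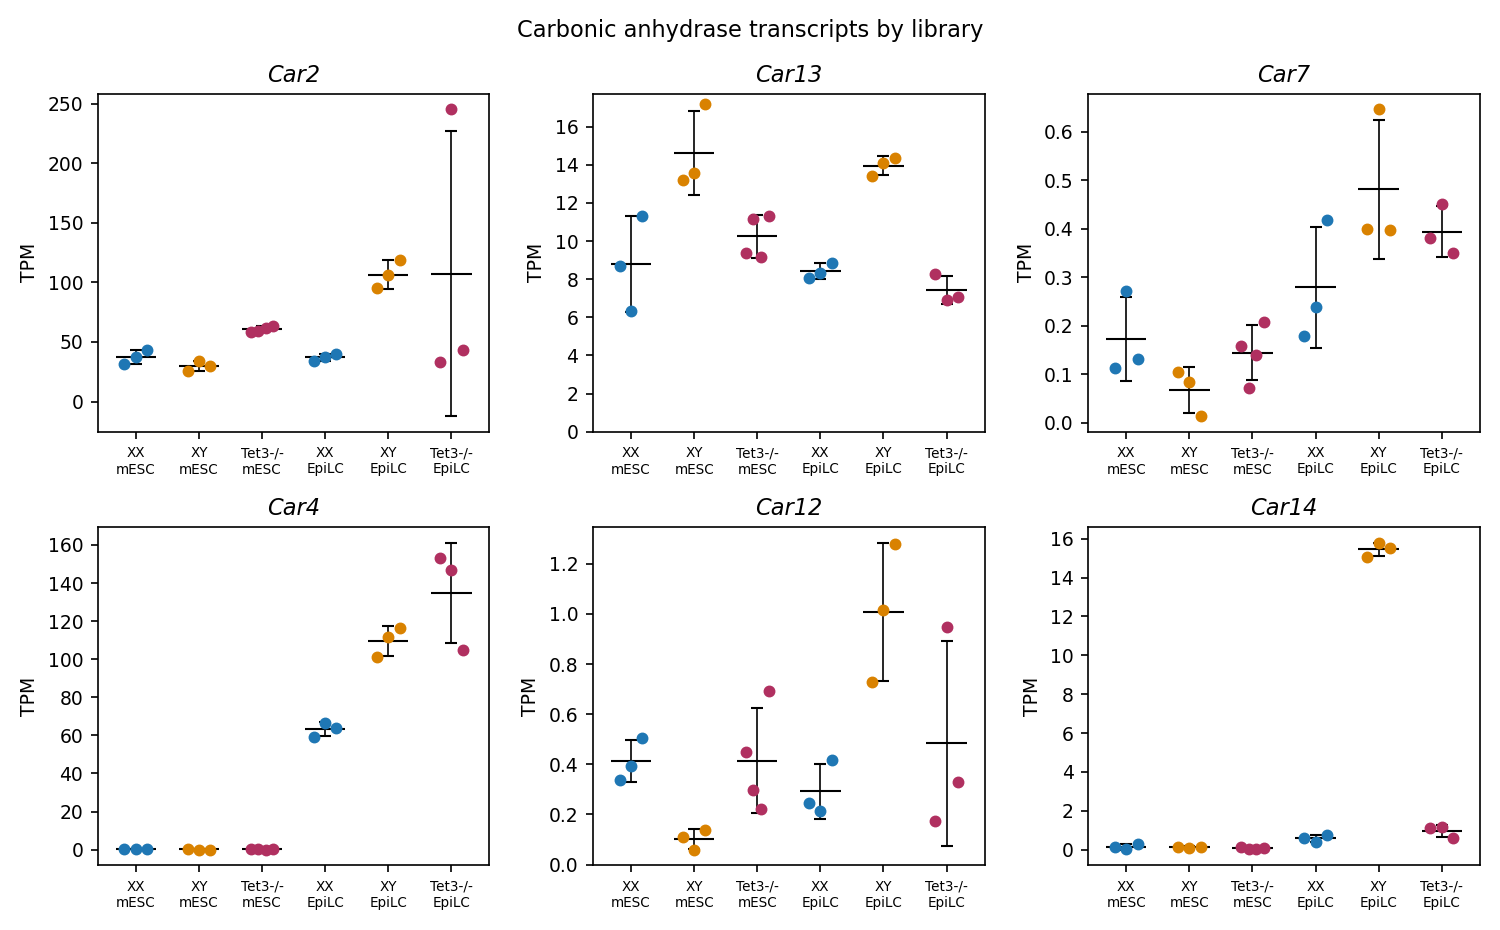
TPM of the 6 carbonic anhydrase genes (vertical axis, linear, a scale of its own per gene) in the 6 groups (horizontal axis). Each point is a library in replicate order, the long bar is the group mean and the whisker is ±1 SD. Car4 is near 0 in mESC and between 59.2 and 153 TPM in EpiLC, Car14 is high in XY EpiLC alone at 15.1 to 15.8 TPM, and Car2 has a single high mutant EpiLC library at 245 TPM.

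Car4 (ENSMUSG00000000805.18, chromosome 11, 84957786 to 84966044, plus strand, GRCm38) was near 0 in mESC and was the most abundant carbonic anhydrase of XX EpiLC, while in XY EpiLC it stood level with Car2. It had 0.115, 0.127 and 0.0465 TPM in the XX mESC libraries. The XY mESC libraries had 0.137, 0.0250 and 0, and the Tet3-/- mESC libraries 0.189, 0.0744, 0 and 0.215. All 10 mESC libraries were thus at or below 0.215 TPM, with the genotypes overlapping.

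In EpiLC Car4 had 59.2, 66.4 and 64.1 TPM in the XX libraries. It had 101, 112 and 116 TPM in the XY libraries and 153, 147 and 105 TPM in mutants #1, #3 and #4. These 9 libraries were the only ones at 1 TPM or more. Car4 thus passed the filter of 1 TPM in 3 libraries through EpiLC alone. On TPM the XX group lay below both others, and the lowest mutant fell inside the XY range, whereas after scaling XX and XY overlapped below every mutant. The group means were 63.2 ± 3.69 TPM (SD, n = 3) in XX, 110 ± 7.92 (SD, n = 3) in XY and 135 ± 26.4 (SD, n = 3) in Tet3-/- EpiLC. The differences from mESC on the log2(TPM + 1) scale were 5.87, 6.71 and 6.91. On that scale the change of a gene that starts near 0 is understated.

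The Car4 signal came from a coding transcript. Of 6 annotated rows, of which 2 are protein-coding, Car4-201 carried from 86.3% to 93.4% of the gene's TPM in EpiLC libraries. The second coding row held at most 0.520%. The remaining rows, annotated as retained intron, nonsense-mediated decay or processed transcript, each had at most 5.97%. The genes on either side did not share the pattern: Znhit3, 41419 bases away, had group means of 10.7 to 20.1 TPM, and Usp32, 18397 bases away, had 5.24 to 10.9 TPM over all groups.

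Among 10337 tested genes with a mean of at least 5 TPM in a group, those whose profile over the 19 libraries was most like that of Car4 included Foxj1 (Pearson r 0.993 on log2(TPM + 1)), Ddr1 (0.993), Ghr (0.992) and Ptprt (0.991). Ddr1, a collagen receptor kinase, had group means of 0.986 to 1.65 TPM in mESC and 32.03, 42.7 and 41.5 TPM in XX, XY and Tet3-/- EpiLC. These correlations are descriptions, since the libraries fall into 2 cell states, and the difference between the states sets most of each value.

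Car14 (ENSMUSG00000038526.14, chromosome 3, 95897768 to 95904691, minus strand) had at most 0.274 TPM in any mESC library. In EpiLC it had 0.596, 0.403 and 0.768 TPM in XX, and 1.13, 1.15 and 0.574 TPM in mutants #1, #3 and #4. The XY EpiLC libraries had 15.1, 15.8 and 15.5 TPM. XY EpiLC thus stood clear of all other groups, and the XX and Tet3-/- EpiLC ranges overlapped. The gene reached 1 TPM in 5 libraries, the 3 of XY EpiLC and 2 mutants, so it passed the filter of 1 TPM in 3 libraries only through the group where it is high. In XY EpiLC the coding transcript Car14-201 carried 74.5% to 82.4% of the TPM and the retained-intron row Car14-204 10.3% to 17.2%. The gene overlaps Aph1a on the opposite strand, which had 10.7 to 19.4 TPM as group means. The libraries were stranded, but whether the quantification used strand is not given in the sources used here.

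Car12 (chromosome 9) and Car7 (chromosome 8) were low everywhere and did not pass that filter. Car12 had 0.728, 1.02 and 1.28 TPM in XY EpiLC, and all of these were above the XX EpiLC libraries, at 0.247, 0.214 and 0.418. On TPM 65.8% of all tested genes showed that placing. In mESC the order was the other way, with 0.339 to 0.506 TPM in XX and 0.0595 to 0.139 in XY, a placing that 9.52% of all tested genes showed. Car7 stayed between 0.0132 and 0.646 TPM over the 19 libraries. In a fit without the filter, on TPM and over 46217 genes, Car12 was called lower in XX than in XY EpiLC (a log2 difference of -0.63, limma adjusted p 0.0171), where 16% of all genes were called lower. Its XX and XY transitions also differed (-0.99, limma adjusted p 0.0198), where 4.86% were called lower. Car7 was not called in any of the 6 comparisons.

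Car2 (ENSMUSG00000027562.12, chromosome 3, 14886273 to 14900770, plus strand) was the main carbonic anhydrase of mESC. It had 31.1, 37.5 and 42.9 TPM in XX mESC and 25.3, 34.1 and 30.1 TPM in XY mESC. The Tet3-/- mESC libraries had 58.1, 59.2, 61.8 and 63.8 TPM and all lay above the wild-type libraries. In XX EpiLC it had 34.3, 37.1 and 39.6 TPM, inside the XX mESC range, and in XY EpiLC 95.03, 106 and 119 TPM, above every XY mESC library. Mutants #1, #3 and #4 had 32.9, 245 and 43.6 TPM in EpiLC, so the mutant mean of 107 ± 120 TPM (SD, n = 3) rested on #3, and without it the mean was 38.2 ± 7.53 TPM (SD, n = 2). The coding transcript Car2-201 carried 80.9% to 97.1% of the EpiLC values.

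Car13 (ENSMUSG00000027555.8, chromosome 3, 14641727 to 14663002, plus strand, 1 transcript row) was present in every library, at 6.31 to 17.2 TPM. It had 8.71, 6.31 and 11.3 TPM in XX mESC, 13.2, 13.6 and 17.2 in XY mESC and 9.38, 11.2, 9.19 and 11.3 in Tet3-/- mESC. The EpiLC libraries had 8.07, 8.34 and 8.87 TPM in XX, 13.4, 14.1 and 14.4 in XY and 8.28, 6.93 and 7.07 in Tet3-/-. On TPM the XY libraries were above the XX libraries in both states, as for 12.6% of all tested genes in mESC and 65.8% in EpiLC. After scaling the ranges overlapped in both. Between the states, Tet3-/- EpiLC lay below Tet3-/- mESC on TPM, and these ranges overlapped after scaling. XY EpiLC and XY mESC overlapped on TPM. After scaling XY EpiLC, at 8.255 to 9.545, lay below XY mESC, at 12.76 to 18.37 (scaled TPM). The XX states overlapped on either scale.

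Car13, Car1, Car3 and Car2 are neighbours on chromosome 3, from 14641727 to 14900770, and did not all share a pattern. Car1, an erythrocyte enzyme, had at most 0.0621 TPM in any library. Car3, an enzyme of muscle and fat, was at or below 0.696 TPM in 18 libraries and at 3.32 TPM in mutant #3 in EpiLC, the library with the highest Car2. Like Car2, Car3 was higher in XY EpiLC, at 0.487 to 0.696 TPM, than in XX EpiLC, at 0.210 to 0.260, though low in both. Over all tested genes 65.8% were placed that way on TPM.

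Counting each gene whose EpiLC libraries all lay above the mESC libraries of the same genotype gave Car4 and Car14 in XX, Car2, Car4, Car7, Car12 and Car14 in XY, and Car4, Car7 and Car14 in Tet3-/-. Over all tested genes the shares were 29.2%, 44.9% and 14.9%. Car13 lay lower in EpiLC without overlap in Tet3-/-, where the share was 21.5%. The members were chosen from this step, so nothing is read from these counts.

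**Figure D2:**
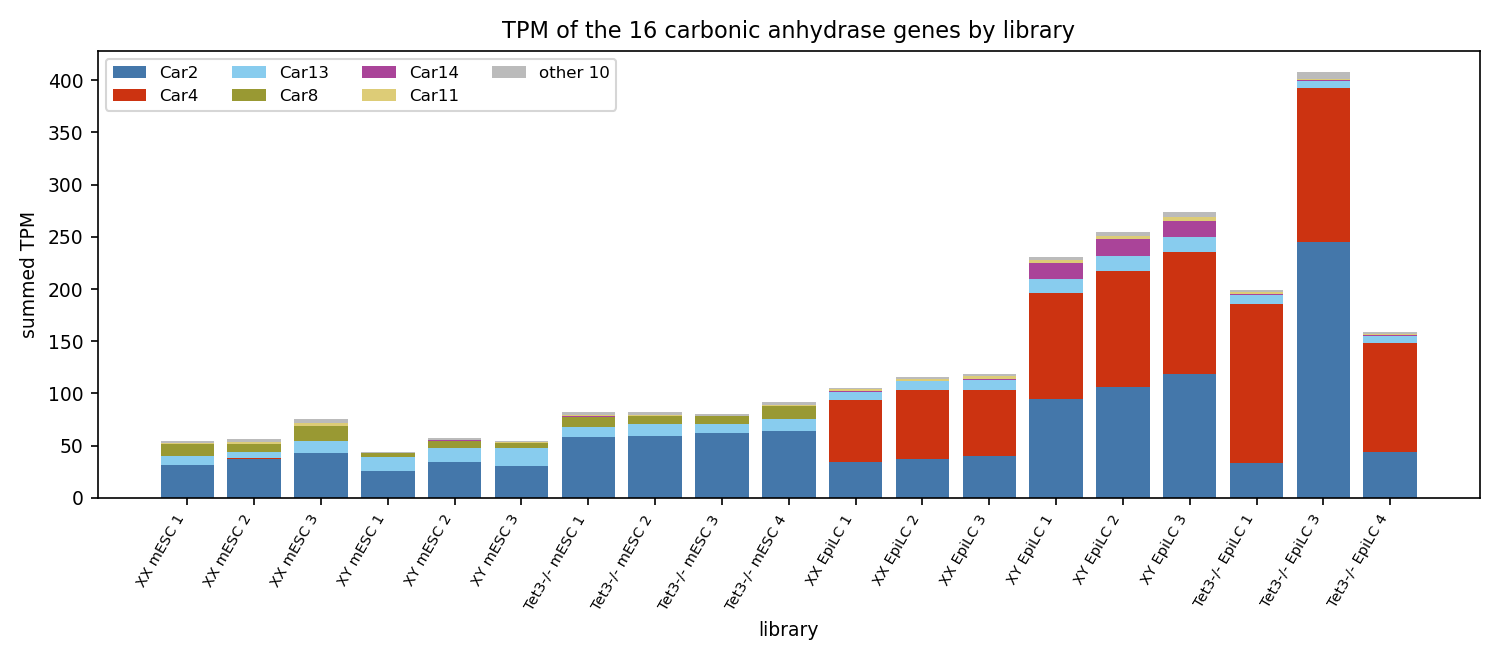
Summed TPM (vertical axis) of the 16 carbonic anhydrase genes in each of the 19 libraries (horizontal axis), stacked by gene, with the other 10 genes pooled in grey. Car2 (blue) makes up most of each mESC bar, and Car4 (red) is added in every EpiLC bar. Mutant #3 in EpiLC is the highest bar at 408 TPM, of which Car2 makes up 60.1%.

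The make-up of the family changed with the state. Car2 held 60.3% ± 5.79 (SD, n = 3) of the summed TPM of the 16 genes in XX mESC, 57.4% ± 2.16 (SD, n = 3) in XY mESC and 72.3% ± 3.04 (SD, n = 4) in Tet3-/- mESC. In EpiLC Car4 held 55.9% ± 1.59 (SD, n = 3) in XX, 43.4% ± 0.740 (SD, n = 3) in XY, and between 36.04% and 77% in the mutants, the lowest being #3. The family sum was 62.0 ± 11.6 TPM in XX mESC and 113 ± 6.84 in XX EpiLC (SD, n = 3 each). It was 51.9 ± 6.90 and 253 ± 21.4 TPM in the XY states (SD, n = 3 each).

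Of the 10 other family genes, Car8 and Car11, which encode related proteins without catalytic activity, passed the filter. Car8 ran opposite to Car4, with 3.88 to 14.7 TPM in mESC libraries and 0.0324 to 0.104 TPM in EpiLC libraries. It was higher in XX than in XY mESC, at 11.2 ± 3.403 against 5.31 ± 1.63 TPM (SD, n = 3 each), a log2 difference of 0.94 (limma adjusted p 0.00713). Car11 had 0.476 to 3.78 TPM, with 1.87 ± 0.784 in XX mESC and 0.648 ± 0.187 in XY mESC (SD, n = 3 each). Car8 and Car11 were both called higher in XX mESC by limma on either scale. Over all genes 6.43% were called higher there on TPM and 18.2% after scaling. Car9, a tumour-associated surface enzyme induced by hypoxia, had at most 0.790 TPM.

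The comparison of Tet3-/- with XX set mutant libraries of LF2 against wild-type libraries of that line under the same culture conditions. Loss of Tet3 cannot be told apart from other differences between the mutant and wild-type cells. In EpiLC Car4 was higher in Tet3-/-. Every mutant library, at 105 to 153 TPM, was above every XX library, at 59.2 to 66.4, a placing that 3.35% of all tested genes showed. The log2 fold change was 1.06 with an SE of 0.18 and a 95% interval of 0.69 to 1.44 (limma adjusted p 0.00452, over 14972 genes), a ratio of means of 2.13. After scaling it was 1.17 (limma adjusted p 0.000187), where 5.43% of all genes were called and 2.2% were called higher. Car4 was 1 of 4 tested members called here, where 1.08% of all genes were called and 0.12% were called higher. Ranked from the highest log2 fold change, Car4 stood at 71 of 14972 genes.

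Without mutant #3 the Car4 difference was 0.99 (limma adjusted p 0.00705), and leaving out each of the 6 libraries in turn gave 0.96 to 1.23 with the call kept each time. The call was lost with a pseudocount of 0.1 (a log2 difference of 1.07, limma adjusted p 0.240) or in a fit of only these 2 groups (limma adjusted p 0.132). The formative sum was 108 and 96.4 TPM in mutants #1 and #4 and 264 in #3, against 89.4 to 111 in XX. The naive sum was 36.0 and 39.4 TPM in mutants #1 and #4 and 102 in #3, against 120 to 135 in XX. Gene by gene, limma called 3 of 14 naive genes lower in the mutants on TPM and 11 after scaling, with 0 higher on either scale, where 0.955% and 3.23% of all genes were called lower. Of 13 formative genes 1 was called higher on TPM and 5 after scaling, with 0 lower, where 0.12% and 2.2% of all genes were called higher. The list medians on TPM were -0.96 for naive and 0.54 for formative genes, against -0.07 over all genes. These counts and medians include mutant #3, where Fgf5 was at 43.7 TPM, against 3.605 and 3.585 in mutants #1 and #4. In #1 and #4 formative genes lay on both sides of XX. Sox3, at 2.865 and 2.492 TPM, was above XX at 1.067 to 1.376. Dnmt3b, at 19.6 and 21.7 TPM, was below XX at 23.2 to 28.4. The part of these state markers in the Car4 difference was not tested.

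The other tested members were not called in Tet3-/- against XX EpiLC. Car14 differed by 0.29 (95% interval -0.03 to 0.60, limma adjusted p 0.589) and Car13 by -0.16 (-0.58 to 0.25, limma adjusted p 1). Car2 differed by 0.92 (-0.04 to 1.89, limma adjusted p 0.558), and by 0.03 without mutant #3 (limma adjusted p 0.932). The 245 TPM of Car2 in mutant #3 stood beside 122 TPM of early mesoderm genes in the same library, of which T made up 94.3 TPM. Mixl1, Lhx1, Gsc and Msgn1 were at 12.9, 7.50, 5.41 and 1.03 TPM. The rest of the list, Tbx6, Mesp2, Mesp1, Kdr and Hand2, was at or below 0.472 TPM there. Tbx6 lay inside its XX EpiLC range. The primitive and visceral endoderm sum there was 17.0 TPM, against 3.35 and 5.18 in the other mutants and at most 5.06 in XX EpiLC, with Afp at 0 and Ttr at 0.0182 TPM. The part of these markers in the Car2 value was not tested.

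In mESC limma called 0 of the 4 members for Tet3-/- against XX, with 0 also at an unadjusted p under 0.05, where 0.601% of all genes were called. Car2 was the nearest: all 4 mutant libraries were above all 3 XX libraries, a placing that 8.23% of all tested genes showed. Its log2 fold change was 0.70 with a 95% interval of -0.20 to 1.61 (limma adjusted p 0.702), and 0.42 after scaling (limma adjusted p 0.663), where 3.27% of all genes were called and no member was. Car4 differed by 0.03 (-0.32 to 0.38, limma adjusted p 0.964). The interval bounds the Car4 change on the log2(TPM + 1) scale only, since all values were near 0.

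The difference between the Tet3-/- and the XX transitions was called for 0 of 4 members on TPM by limma, with 1, Car4, at an unadjusted p under 0.05. Over all genes 0.174% were called. For Car4 it was 1.04 (95% interval 0.52 to 1.55, limma adjusted p 0.102), and 1.18 after scaling (limma adjusted p 0.00864), which is a call where 0.628% of all genes were called. Without mutant #3 in EpiLC it was 0.96 on TPM (limma adjusted p 0.0648). Without mutant #4 in EpiLC, the lowest mutant, it was 1.21 (limma adjusted p 0.0461). On simulated data the fit found 5% of changes of 1 log2 unit in this comparison, so a missing call says little. Car4 reached 1 TPM in its 9 EpiLC libraries alone and was near 0 in mESC. Its difference of transitions thus adds little to the EpiLC comparison, at 1.06.

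**Figure D3:**
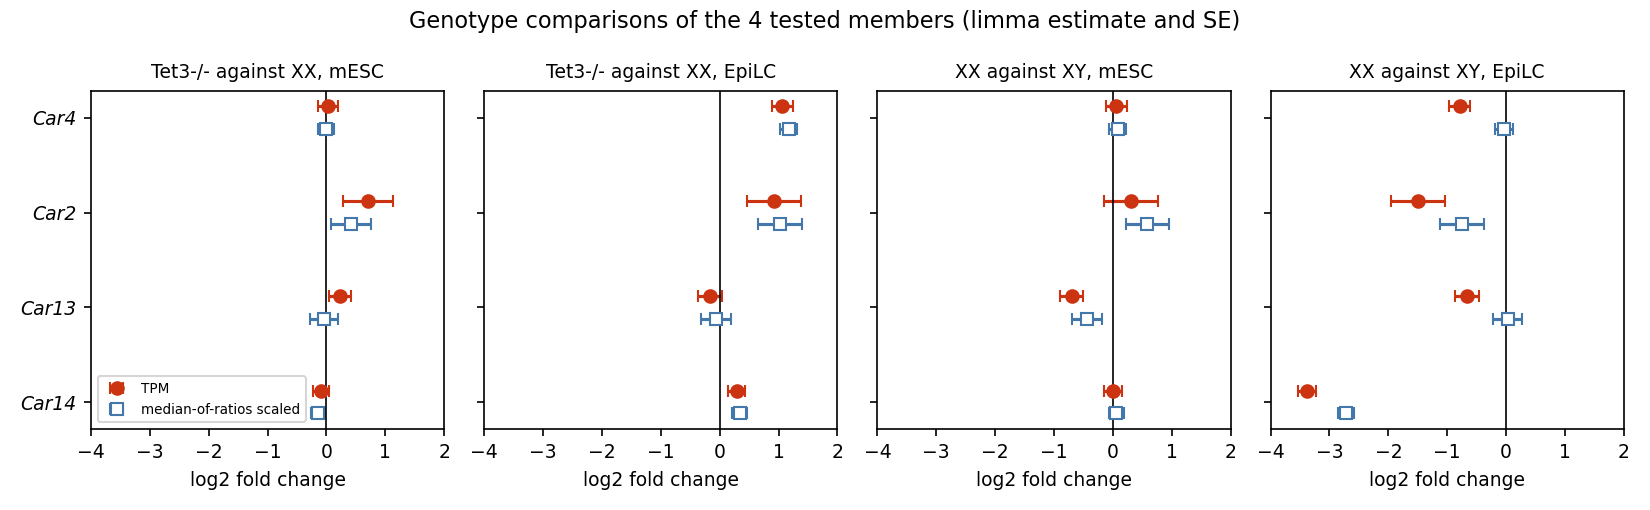
limma log2 fold changes (horizontal axis) with SE for the 4 tested members (vertical axis) in 4 comparisons (panels), on log2(TPM + 1) (filled circles) and after median-of-ratios scaling (open squares). Car4 is above 0 on both scales in Tet3-/- against XX EpiLC, and Car14 is far below 0 on both in XX against XY EpiLC, where the Car4 and Car13 values move to about 0 with scaling.

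The comparison of XX with XY, which is also LF2 against E14, gave the largest difference for Car14. In EpiLC XX had 0.589 ± 0.182 TPM and XY had 15.5 ± 0.351 (SD, n = 3 each), a ratio of means of 26.2. The log2 fold change was -3.38 with an SE of 0.15 (limma adjusted p 3.68e-11), and -2.72 after scaling (limma adjusted p 2.54e-10). Since Car14 passed the filter through XY EpiLC alone, it had to differ among the genes tested. In the fit of all 46217 genes without a filter it had the same log2 fold change (limma adjusted p 2.32e-10). By size of the fall it stood at rank 14 on either scale among the 14972 genes that passed the filter. The same limit holds for that rank. The XX and XY transitions differed by -3.39 for Car14 (95% interval -3.83 to -2.94, limma adjusted p 2.87e-08, and 7.65e-08 without the filter). In the same EpiLC comparison 13 of 13 formative genes were called lower in XX by limma on either scale. Of 14 naive genes 10 were called higher and 1 lower on TPM, and 12 and 0 after scaling. Over all genes 5.23% were called higher and 42% lower on TPM, and 17.9% and 15.1% after scaling. The part of these state markers in the Car14 difference was not tested.

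All 4 tested members were called lower in XX than in XY EpiLC on TPM, where 47.2% of all genes were called, 5.23% higher and 42% lower. This count includes Car14, with the limit on its filter given above. Car4 differed by -0.78 (limma adjusted p 0.00254), Car13 by -0.66 (limma adjusted p 0.0128) and Car2 by -1.498 (limma adjusted p 0.0150). The Car4 call was kept in 6 of 9 alternative settings and with any library left out. After scaling, Car14 alone was called, where 33% of all genes were called, 17.9% higher and 15.1% lower. Car4 then had 66.5 ± 3.18 in XX and 68.1 ± 3.35 in XY EpiLC (scaled TPM, SD, n = 3 each), which is -0.03 on the log2 scale (limma adjusted p 0.899), and the groups overlapped. Car13 turned to 0.03 (limma adjusted p 0.962), and Car2 was at -0.75 (limma adjusted p 0.133).

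The ratio of Car4 to Car13 within a library does not depend on scaling. It was 7.34, 7.97 and 7.22 in XX EpiLC and 7.53, 7.94 and 8.10 in XY EpiLC, with overlapping ranges. In mutants #1, #3 and #4 it was 18.5, 21.2 and 14.8, above all wild-type libraries. The ratio of Car2 to Car13 was 4.26 to 4.47 in XX EpiLC, 7.10 to 8.28 in XY EpiLC, and 3.98, 35.4 and 6.16 in the mutants. These ratios are descriptions, and this pair of genes was set against each other after their values were seen.

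In mESC limma called 1 of 4 members for XX against XY, where 14.2% of all genes were called. Car13 fell by 0.70 on the log2 scale in XX (limma adjusted p 0.0221), at 8.78 ± 2.52 against 14.6 ± 2.20 TPM (SD, n = 3 each), with no overlap, as for 12.6% of all tested genes in that direction. After scaling it was -0.44 and not called (limma adjusted p 0.207), where 30.8% of all genes were called, and without XX mESC 2 or XY mESC 3 the TPM call was lost as well (limma adjusted p 0.0647 and 0.0943). Car2 differed by 0.31 (95% interval -0.66 to 1.27, limma adjusted p 0.696).

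The XX and XY transitions differed on TPM for Car4 and Car14, 2 of 4 members called, where 16% of all genes were called. This count too includes Car14, with the limit on its filter given above. For Car4 the difference was -0.84 (limma adjusted p 0.0287), and -0.12 after scaling (limma adjusted p 0.733), where 23.5% of all genes were called. The Car4 call also ended with a pseudocount of 0.1 (-1.21, limma adjusted p 0.149) and without XX mESC 3, XY mESC 2, XY EpiLC 2 or 3, or any of the XX EpiLC libraries (limma adjusted p 0.0518 to 0.0865). A replicate block ended the call as well. Car4 reached 1 TPM in EpiLC alone and was near 0 in mESC. Its difference of transitions thus adds little to the EpiLC comparison, at -0.78. Car2 differed by -1.80 (95% interval -3.17 to -0.44, limma adjusted p 0.0678), with values that were level in XX and higher by 1.81 in XY EpiLC. The comparisons of XX with XY and of Tet3-/- with XX share the XX libraries.

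Genes that move acid and bicarbonate were looked up as lists, chosen with results of these data known. Against XX, limma called 0 of 8 tested bicarbonate transporters and 0 of 10 tested proton and lactate transporters in Tet3-/- EpiLC, with 1 lower in each list at an unadjusted p under 0.05 and, after scaling, 1 lower and 0 called. Of 14 tested hypoxia-induced genes 0 were called, with 1 higher and 2 lower unadjusted and 2 higher and 1 lower after scaling. In mESC limma also called 0 in the 3 lists. The transporter lists had 0 there unadjusted and after scaling, and the hypoxia-induced list had 2 higher and 2 lower unadjusted and 1 higher and 2 lower after scaling.

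In XX against XY EpiLC 5 of 8 bicarbonate transporters, 7 of 10 proton and lactate transporters and 9 of 14 hypoxia-induced genes were called lower, and 0 higher, where 42% of all genes were called lower. The list medians were -0.96, -1.06 and -0.74, against -0.58 over all genes, and -0.35, -0.37 and -0.05 after scaling. Scaled calls were 4 lower and 1 higher, 5 and 1, and 3 and 2, where 15.1% of all genes were lower and 17.9% higher.

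Slc16a3, which encodes the lactate exporter MCT4, had 18.3, 18.5 and 23.2 TPM in XX EpiLC and 87.3, 101 and 104 in XY EpiLC. Its log2 fold change was -2.23 (limma adjusted p 0.0023), and -1.49 after scaling (limma adjusted p 0.0135). Mutants #1 and #4 had 19.9 and 23.9 TPM, near XX, and mutant #3 had 86.2. Slc16a1, the lactate carrier MCT1, had 22.5 to 24.3 TPM in XX and 67.0 to 74.0 in XY EpiLC (log2 fold change -1.57, limma adjusted p 0.000392, -0.83 after scaling). Slc4a3, an anion exchanger of chloride and bicarbonate, had 0.811 to 1.501 TPM in XX and 3.46 to 6.24 in XY EpiLC (log2 fold change -1.44, limma adjusted p 1.88e-05).

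Slc4a7, a sodium and bicarbonate cotransporter, had 12.7 to 16.2 TPM in XX and 25.9 to 42.1 in XY EpiLC (log2 fold change -1.22, limma adjusted p 0.00564). Slc4a3 and Slc4a7 are given on TPM alone, where the median over all tested genes was -0.585 in this comparison. Among hypoxia-induced genes the largest falls were those of Bnip3 (-1.49) and Fam162a (-1.39), which were not called after scaling (limma adjusted p 0.226 and 0.0549). In mESC Vegfa, a growth factor for blood vessels, was higher in XX, at 20.2, 24.97 and 27.7 against 5.55, 3.84 and 9.15 TPM (log2 fold change 1.87, and 2.17 after scaling). Pdk1, a kinase that restrains entry of pyruvate into mitochondria, was lower in XX mESC (-1.88, and -1.63 after scaling). Both were called by limma on either scale. Of the 14 tested hypoxia-induced genes 4 were called higher and 1 lower there, where 6.43% of all genes were higher and 7.73% lower. After scaling 5 were higher and 2 lower, where 18.2% and 12.6% of all genes were.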

How the data were processed

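The authors deposited TPM per transcript for stranded, rRNA-depleted total RNA libraries (kit per the labels' protocols), each column summing to 1000000. The submitters' processing notes name FastQC 0.11.7, Trimmomatic 0.35, Salmon 1.1.0 and GRCm38, without role or order. TPM carries no depth, so no counting intervals are given.

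Of 140948 transcripts, all but 1096 (0.0454% to 0.215% of TPM) were assigned to genes by GENCODE M21 (GRCm38) and added up. limma 3.58.1 (R 4.3.3) was fitted to log2(TPM + 1) in a single model of 6 groups with a trend, on 14972 genes that reached 1 TPM in 3 or more libraries, among them 4 of the 6 members. Benjamini-Hochberg adjustment ran over all genes in each comparison, with calls under 0.05. The members, lists and tests were chosen with earlier results of these data known. From each list, up to 4 called genes with a mean of at least 5 TPM and the largest changes could be named, and genes most like Car4 were ranked by Pearson r, of which 1 is not reported here. On simulated data (200 changed genes among 14972), the fit found 94.5% of changes of 2 log2 units in Tet3-/- against XX EpiLC and 89.5% in XX against XY EpiLC, and 38.5% and 39% of changes of 1 unit. In the difference of the Tet3-/- and XX transitions it found 77% of changes of 2 units and 5% of 1 unit. In that of the XX and XY transitions it found 72.5% and 1%. In the data 47.2% of all genes were called in XX against XY EpiLC and 16% in that difference of transitions. Both are far more than the 200 genes changed in the simulation, so the rates need not hold there. Alternatives covered the pseudocount (0.1), the filter (none, or 5 TPM), a pair of scalings, coding transcripts only, fits of only the groups compared, no trend, a replicate block and leaving out each library.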

Additional observations from a re-analysis of the deposited data

Results flagged for a closer look

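The XX and XY transitions from mESC to EpiLC differed for a pair of members among 8 such differences tested, by limma's test of the difference itself. For Car14 the difference was -3.39 on the log2(TPM + 1) scale (limma adjusted p 2.87e-08), and -2.78 after scaling (limma adjusted p 5.07e-08): Car14 was higher by 0.49 in XX EpiLC and by 3.88 in XY EpiLC than in the mESC of the same genotype. Car14 passed the filter only through XY EpiLC, and without a filter the difference was called as well (limma adjusted p 7.65e-08). For Car4 it was -0.84 (limma adjusted p 0.0287), and -0.12 after scaling (limma adjusted p 0.733), and the call ended in 7 of 12 fits that left out a library and with a pseudocount of 0.1 (limma adjusted p 0.149). A replicate block ended the call as well. Car4 passed the filter through EpiLC alone and was near 0 in mESC, so this value adds little to the EpiLC comparison, at -0.78. In Tet3-/- mESC, the group of 4 libraries, Dixon's test found no outlying library for any of the 6 genes, and groups of 3 were not examined.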

How the results depend on the processing

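Leading limits are the scale, the small groups and the unknown depth. The count of called members went from 4 to 1 in XX against XY EpiLC under median-of-ratios scaling and under rescaling over coding genes, and leaving out a library gave 2 to 4 (2 without XY EpiLC 3). It rose to 5 without the filter, with Car12. In XX against XY mESC it went from 1 to 0 under both scalings and in a fit of only the groups compared, and leaving out a library gave 0 to 1. The count for Tet3-/- against XX EpiLC went from 1 to 0 with a pseudocount of 0.1 and in a fit of only the groups compared, and stayed at 1 with any library left out. In the difference of the Tet3-/- and XX transitions it went from 0 to 1 under both scalings, and from 0 to 1 with a library left out (Tet3-/- EpiLC 4). In the difference of the XX and XY transitions it went from 2 to 1 with a pseudocount of 0.1, under both scalings and with the replicate block, and ran from 1 to 2 with a library left out. The call for Car4 ended there in 7 of 12 cases (XX mESC 3, XY mESC 2, XX EpiLC 1, 2 or 3, XY EpiLC 2 or 3). The call for Car2 in XX against XY EpiLC ended without XX EpiLC 1 (limma adjusted p 0.0504) or XY EpiLC 3 (0.0555), and that for Car13 without XY EpiLC 3 (0.0514). In the difference of the XX and XY transitions the count rose to 3 without the filter, with Car12, and in a fit of only the groups compared, with Car2 (limma adjusted p 0.00133). The cause of these changes was not tested.

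Signs turned only where no call was made, with 1 exception: in XX against XY EpiLC the called Car13 value went to 0.027 after scaling. After scaling Car4 was at -0.0088 and Car13 at -0.042 in Tet3-/- against XX mESC, and with a library left out Car4 ran from -0.014 to 0.080. Car14 in XX against XY mESC was at -0.085 with a pseudocount of 0.1 and -0.020 from coding transcripts, and ran from -0.082 to 0.085 with a library left out. In the difference of the Tet3-/- and XX transitions Car2 ran from -0.67 (without Tet3-/- EpiLC 3) to 0.76, and in that of XX and XY Car13 ran from -0.16 to 0.22.

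Whether replicate numbers pair the libraries is not settled by these values. Deviations of same-numbered mESC and EpiLC libraries correlated at 0.070, -0.049 and 0.032 in XX, 0.19, -0.043 and 0.24 in XY, and 0.27, 0.30 and -0.020 in mutants #1, #3 and #4. Those of differently numbered libraries ran from -0.12 to 0.057 in XX, -0.26 to 0.11 in XY and -0.34 to 0.28 in the mutants. With the replicate block the Car4 difference between the XX and XY transitions was -0.84 and not called (limma adjusted p 0.104). Over all genes, scaling moved the share called from 0.601% to 3.27% and from 1.08% to 5.43% in Tet3-/- against XX mESC and EpiLC, and from 14.2% to 30.8% in XX against XY mESC. In XX against XY EpiLC 5.23% were higher and 42% lower on TPM, against 17.9% and 15.1% after scaling, and in the difference of the Tet3-/- and XX transitions 0.174% were called against 0.628%.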
